A study of Mus musculus with 194 samples.

Results

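Of the 194 single-cell libraries of the series, 97 were CD8+ T-cells that could be compared, and 21 of these had no cousin named in their labels. By their labels these 21 cells made up 14 lineages. Of these, 7 were sister pairs (14 cells) and 7 were single cells with neither a sister nor a cousin named. The label of sister pairs thus holds for 14 of the 21 cells. A missing label does not show that cells were unrelated. Single cells 69 and 70, for example, were recorded at 1.98 and 2.0 h after division. The tests take the 14 lineages as independent, which the labels cannot show. The 21 cells were set against the 76 cells of 20 lineages whose labels name cousins, 16 with 4 cells and 4 with 3 cells. Members were chosen by label, being no doublet, having empty or unavailable entries for both cousins, and having at least 1000 detected genes (genes above 0 TPM), and 1 of 22 cells without cousins fell below that limit.

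All cells came from the spleens of C57BL/6J mice of both sexes, 6 in total and 4 to 16 weeks old. CD8+ T-cells were purified with a magnetic CD8a T-cell kit. They were activated for 30 h with 5 μg/mL plate-bound anti-CD3 and 2 μg/mL anti-CD28. Each founder was then grown alone in 1 lane of a trap array in medium with 100 U/mL IL2, its progeny were followed by time-lapse imaging, and each released cell gave 1 library. By the study's description both groups shared all of these treatments, though 3 of the single cells have no recorded time since division. The labels name no mouse or run and do not say why cousins are missing, so any difference of mouse, culture or run cannot be told apart from the difference of group.

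A CD8+ T-cell carries a T-cell receptor with the CD3 chains and the CD8 coreceptor. When the receptor and the costimulatory receptor CD28 are engaged, the cell leaves rest, takes up interleukin 2, divides quickly and begins to make cytotoxic granule proteins such as granzyme B, while genes of resting cells, such as those for the homing receptor Ccr7 and the transcription factor Tcf7, can be turned down. Daughters of a division start from the same cytoplasm, and cousins share a grandmother, so lineage records allow resemblance by descent to be measured.

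The labelled cell type was checked against its defining markers. Cd3e, a chain of the CD3 complex, was above 0 TPM in 21 of 21 cells without cousins and in 76 of 76 cells of cousin lineages, Cd8a in 21 and 73, and Cd8b1 in 21 and 72. The sum of 8 T-cell markers ranged from 1372 to 5487 TPM over lineages without cousins (median 3587) and from 1792 to 5762 TPM over cousin lineages (median 3610). Among B cell markers, Pax5 and Ebf1 were at 0 in all cells, and the sum of 10 markers had medians of 16.9 and 19.9 TPM and ranges of 0 to 68.7 and 0 to 70.6 TPM. Of 10 myeloid markers measured, 7 were at 0 throughout, Lyz2 and Cd14 among them, with sums of at most 0.97 and 1.25 TPM. Dendritic cell markers summed to at most 2.85 and 6.45 TPM, erythroid markers to at most 7.15 and 33.2 TPM and CD4 lineage markers to at most 18.8 and 13.8 TPM. The 8 natural killer cell markers, of which Ncr1 was at 0 in all cells, reached 530 TPM in a lineage without cousins and 382 TPM in a cousin lineage, with a median of 0 in both groups. Klra7, the highest of them, was above 0 TPM in 4 of 21 and 10 of 76 cells. What part these transcripts had in the comparisons was not tested.

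Recorded times since division were shorter on average without cousins, a difference that did not pass adjustment. Hours since division averaged 2.99 ± 2.22 (SD) over the 11 lineages without cousins that have a record and 4.93 ± 2.06 over 20 cousin lineages, a difference of -1.94 h (permutation test, p = 0.0209, adjusted p = 0.146 over 7 tests). Times ran from 0.5 to 7.27 h without cousins and from 1.43 to 9.39 h with cousins, and 3 lineages without cousins but no cousin lineage had a mean time under 1 h. Counted by cell, with cells of sister pairs included, 5 cells without cousins and 2 cells of cousin lineages had been released within 1 h of division. Detected genes averaged 7247 ± 1338 per cell in 14 lineages without cousins and 6644 ± 1352 in 20 cousin lineages (difference 603, permutation p = 0.209, adjusted p = 0.731). Rn45s took 20.2 ± 9.25% of TPM without cousins and 21.1 ± 6.33% with cousins (difference -0.907 percentage points, permutation p = 0.737, adjusted p = 0.885). The ranges overlapped in all 3 measures. A single cell, number 81, stood apart with 4969 detected genes and an Rn45s share of 0.984%, and without it the sign of the Rn45s difference turned (0.572).

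**Figure D1:**
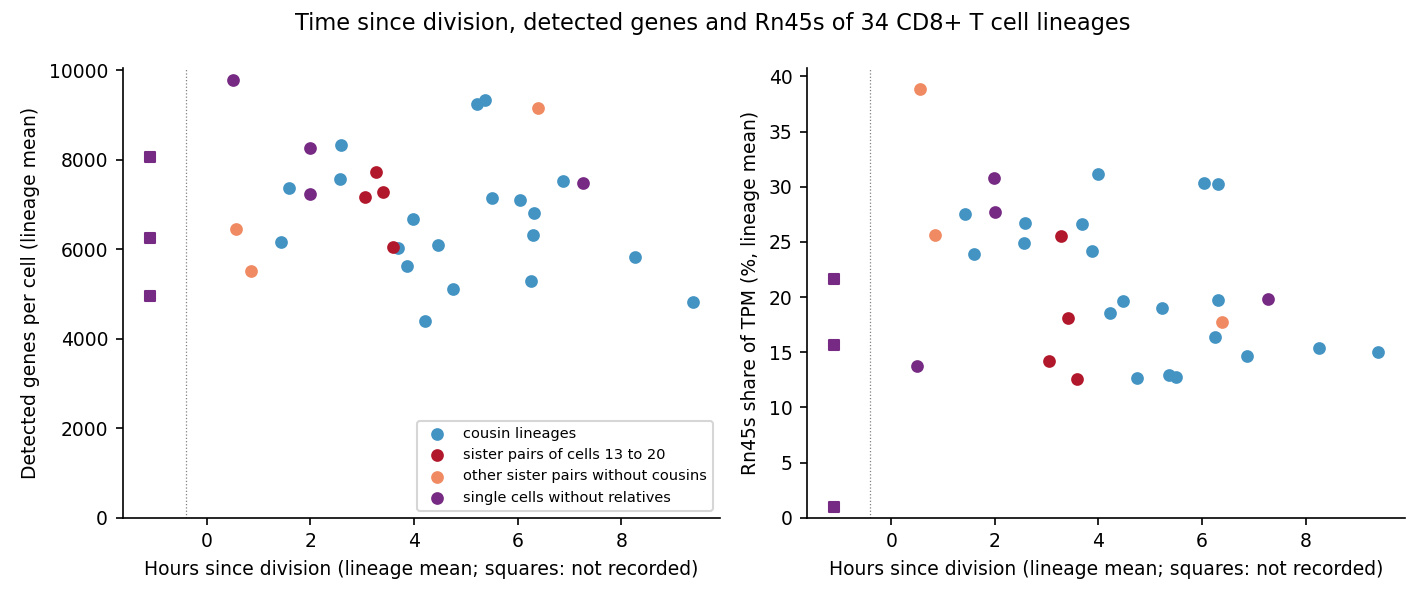
Mean detected genes per cell (left) and mean Rn45s share of TPM in percent (right) against mean hours since division, 1 point per lineage; squares left of the dotted line are the 3 single cells with no recorded time. Lineages without cousins lie between 0.5 and 7.27 h and cousin lineages between 1.43 and 9.39 h.

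Transcripts of the sex chromosomes set the 4 sister pairs of cells 13 to 20 apart from the rest. Xist is transcribed from the inactive X chromosome of female cells, and Ddx3y, Eif2s3y, Kdm5d and Uty lie on the Y chromosome, so the progeny of 1 founder would carry transcripts of one kind or the other. More than 1 TPM of both kinds was found in 5 of these 8 cells, in 0 of the other 13 cells without cousins and in 2 of 76 cells of cousin lineages. Cell 13 held 154 TPM of Xist beside 3.81 TPM of Y-linked transcripts, and cell 14 held 55.4 beside 10.8 TPM. In the pair of cells 16 and 18 the first had no Xist and 17 TPM of Y-linked transcripts, and its named sister had 37.1 TPM of Xist and 2.83 TPM of Y-linked transcripts. In the pair of cells 17 and 20 Xist was at 42.1 and 3.92 TPM. All 4 of these pairs held both kinds, against 0 of the other 10 lineages without cousins and 2 of 20 cousin lineages, where the smaller of both values was at most 3.59 TPM. These pairs had been released between 3.01 and 3.62 h after division. Since these libraries go against what a single founder would give, values without them follow where leaving them out changed a call or a sign or moved the difference of a named gene by over 1.5 times.

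**Figure D2:**
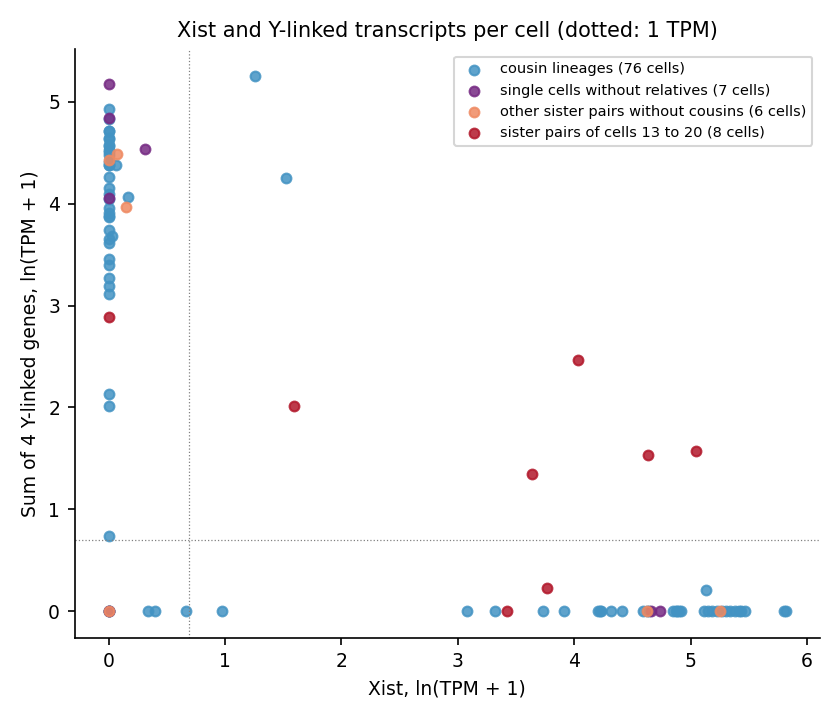
Xist (horizontal) against the sum of 4 Y-linked genes (vertical), both as ln(TPM + 1), 1 point per cell, with dotted lines at 1 TPM. Points to the right of and above both lines are the 5 cells of the pairs numbered 13 to 20 and 2 cells of cousin lineages.

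The question of the comparison was whether cells without recorded cousins differed in expression from cells of fuller lineages. No gene passed (0 of 9997, 0% of genes tested; limma on lineage means, adjusted p under the threshold of 0.05, lowest adjusted p = 0.152). At an unadjusted p under 0.05, 547 genes (5.47%) were found, 410 with higher means without cousins (4.10%) and 137 with lower means (1.37%). The median difference over all genes was 0.09 on the natural log scale, and 62.1% of genes had a higher mean without cousins. For a typical gene the 95% interval reached 0.63 to either side of the estimate, a factor of 1.88, and for the 1337 genes with a mean above 4 it reached 0.47, a factor of 1.60. In no gene were all lineages of one group above all lineages of the other. When detected genes entered as a covariate the median difference was -0.04 and 0 genes were called. In the 31 lineages with a recorded time, which leave out 3 single cells, the median was 0.17 without a covariate (0 called, 891 with an unadjusted p under 0.05) and 0.12 with hours since division as a covariate (0 called, 652).

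Without the 4 pairs of cells 13 to 20, 11 genes passed (8 higher and 3 lower without cousins, lowest adjusted p = 0.00772, limma). With 1 cell drawn from each lineage and the same pairs left out 3 passed, and with lineages weighted by their number of cells 0 passed, the lowest adjusted p being 0.139. These 10 lineages hold the 7 single cells, and a single cell varied more than a lineage mean: the median SD over genes was 1.15 between single cells, 0.846 between sister pairs and 0.741 between cousin lineages.

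The lowest p belonged to Bad, a member of the BCL2 family that binds survival-promoting relatives and so favours apoptosis, encoded on the plus strand of chromosome 19 (6941861 to 6951899, GRCm38). Its level was 3.06 ± 0.77 in 14 lineages without cousins and 1.57 ± 0.81 in 20 cousin lineages, a difference of 1.49 (SE 0.31, 95% interval 0.87 to 2.11, limma adjusted p = 0.152). The 7 sister pairs lay at 2.24, 3.72, 1.55, 4.17, 2.17, 2.88 and 3.10 and the 7 single cells at 2.48, 3.80, 3.0, 3.68, 3.03, 4.08 and 2.89. Cousin lineages ran from 0 to 2.66 with a median of 1.44. All 14 lineages without cousins were above that median, and 4 of them lay within the range of the cousin lineages. That range is one of means over 3 or 4 cells, which spread less than individual cells. Sisters of a cousin lineage differed in Bad by up to 4.12, so some individual cell there read at least 4.12. In the lineages with a recorded time the Bad difference was 1.41 (limma adjusted p = 0.272). With hours since division as a covariate in these lineages it was 1.58 (adjusted p = 0.327). Bad was above 0 TPM in 21 of 21 cells without cousins and in 44 of 76 others. It passed without the pairs of cells 13 to 20 (difference 1.54, adjusted p = 0.0413) but not with 1 cell per lineage or with lineages weighted by cell number, and the adjusted p ran from 0.0244 to 0.998 over 25 alternatives. Sisters without cousins differed in Bad by 0.71 ± 0.56 on average, and sisters of cousin lineages by 1.66 ± 1.15 (exact permutation p = 0.0485, adjusted p = 0.438 over 14 genes).

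Tspan32, a tetraspanin of blood cells that restrains T-cell proliferation, had the next lowest p (chromosome 7, 143005046 to 143019644, plus strand). It averaged 2.76 ± 1.58 without cousins and 1.09 ± 0.75 in cousin lineages (difference 1.67, SE 0.39, limma adjusted p = 0.482). The sister pairs read 1.5, 1.87, 0, 2.39, 0, 1.90 and 4.05, and the single cells 4.05, 3.15, 4.38, 4.61, 4.49, 2.42 and 3.84. Cousin lineages ran from 0 to 2.54. The pair of cells 75 and 76 and the single cells other than cell 81 lay above all cousin lineage means, and the other lineages overlapped them. Those means cover 3 or 4 cells each and so spread less than individual cells. Sisters of a cousin lineage differed in Tspan32 by up to 4.38, so some individual cell there read at least 4.38. In each of the pairs 13 and 15, 14 and 19, and 17 and 20, one sister read 0 and the other 2.99, 3.73 and 4.78. Without the pairs of cells 13 to 20 the difference was 2.2 (adjusted p = 0.00772). In the lineages with a recorded time it was 1.45 (limma adjusted p = 0.416). With hours since division as a covariate in these lineages it was 1.72 (adjusted p = 0.575).

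Among the other genes with higher means, none of which passed, were several with roles in division and T-cell biology. Gins1, a subunit of the replicative helicase complex, averaged 3.64 ± 0.79 without and 2.51 ± 0.86 with cousins. Gimap9, a GTPase of the lymphocyte GIMAP family, averaged 4.29 ± 0.56 and 3.42 ± 0.64. Ethe1, a mitochondrial sulfur dioxygenase, averaged 2.79 ± 1.49 and 1.32 ± 0.88, and Asah1, the lysosomal acid ceramidase, 2.40 ± 1.09 and 1.23 ± 0.85. Apoe, the lipid carrier apolipoprotein E, was above 0 TPM in 9 of 21 cells without cousins and 7 of 76 others, with levels of 0.81 ± 0.75 and 0.15 ± 0.28. The adjusted p of these 5 genes was 0.651 by limma, and their ranges overlapped between the groups.

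Genes with lower means without cousins were led by Sap30, a subunit of the Sin3 histone deacetylase complex. It averaged 0.34 ± 0.77 without and 1.51 ± 0.99 with cousins (difference -1.17, SE 0.31, limma adjusted p = 0.651). It was at 0 in 11 of 14 lineages without cousins and in 3 of 20 cousin lineages, and above 0 TPM in 4 of 21 and 35 of 76 cells. Averages over more cells are less often 0, so the counts of cells are the closer comparison. C1qbp, a mitochondrial matrix protein needed for translation there, averaged 4.77 ± 1.64 and 5.89 ± 0.65 (adjusted p = 0.654). Its sister pairs read 6.35, 6.22, 6.76, 6.57, 5.29, 4.33 and 3.24, and its single cells 6.23, 5.74, 4.55, 2.95, 2.94, 3.94 and 1.61. The pair of cells 75 and 76 and cells 78, 80, 81 and 82 lay below all cousin lineage means (4.17 to 6.72). Such means cover 3 or 4 cells each and so spread less than individual cells. The 4 pairs of cells 13 to 20 lay at the upper end, between 6.22 and 6.76. Without those pairs the C1qbp difference was -1.81 (adjusted p = 0.00772). In the lineages with a recorded time, which leave out cells 80, 81 and 82, it was -0.598 (limma adjusted p = 0.588). With hours since division as a covariate in these lineages it was -0.82 (adjusted p = 0.708).

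The replication-dependent histone genes Hist2h3b and Hist2h3c2, whose near-identical copies make the split of reads between them uncertain, were also lower on average. Hist2h3b read 4.82 ± 1.99 without and 6.19 ± 0.83 with cousins (difference -1.37, adjusted p = 0.652), and Hist2h3c2 3.97 ± 1.86 and 5.38 ± 0.86 (difference -1.41, adjusted p = 0.651). Without the pairs of cells 13 to 20 both passed. Hist2h3b had a difference of -2.0 (limma adjusted p = 0.0482) and Hist2h3c2 one of -2.03 (adjusted p = 0.0360). Hist2h3b also passed without those pairs at 1 cell per lineage (-2.35, adjusted p = 0.0366). In the lineages with a recorded time the Hist2h3b difference was -0.796 (limma adjusted p = 0.519). That of Hist2h3c2 was -1.01 there (adjusted p = 0.462). With hours since division as a covariate these were -0.847 and -1.15 (adjusted p = 0.708 and 0.674). Papd4, a cytoplasmic poly(A) polymerase, averaged 1.45 ± 1.39 and 2.74 ± 0.92, and Clasp2, which binds the ends of microtubules, 2.12 ± 1.38 and 3.16 ± 0.57. Neither Papd4 nor Clasp2 passed with or without those pairs.

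**Figure D3:**
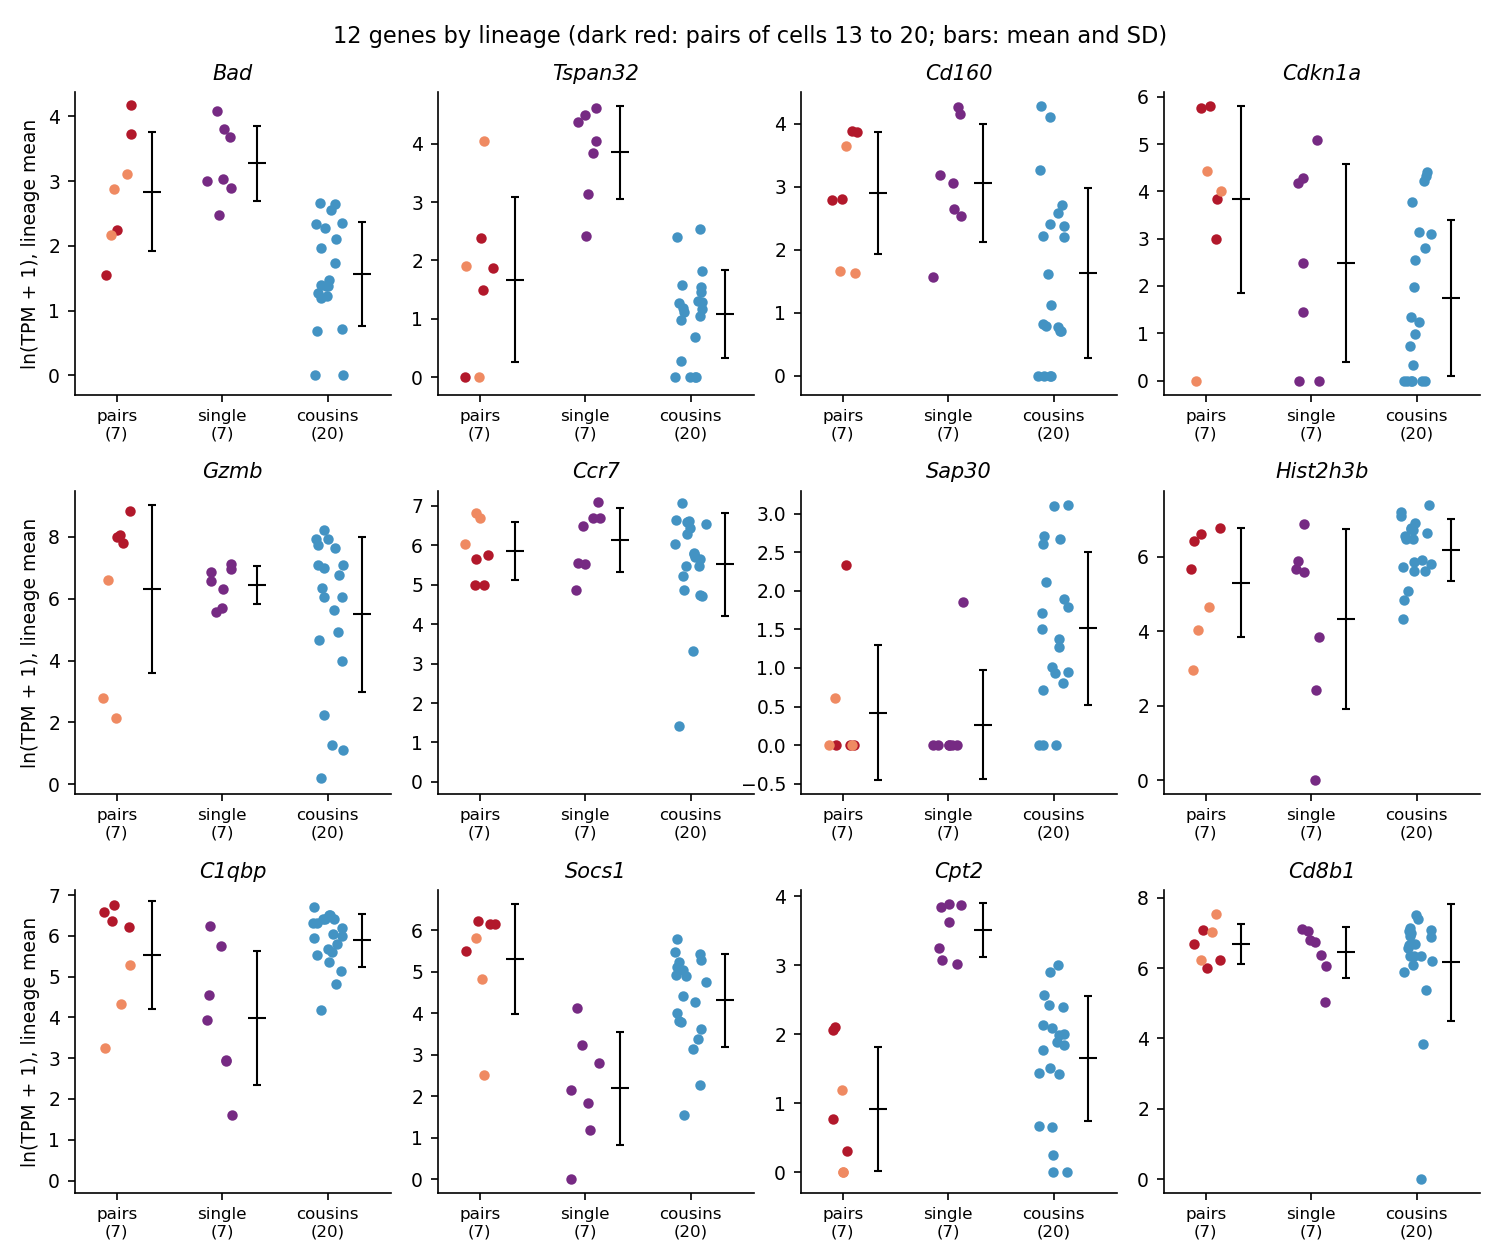
Lineage means of ln(TPM + 1) for 12 genes in 7 sister pairs without cousins (pairs of cells 13 to 20 in dark red), 7 single cells and 20 cousin lineages, with black bars for mean and SD. Bad lies at 1.55 or higher in all 14 lineages without cousins. Tspan32 is high in most single cells and in the pair of cells 75 and 76. Cpt2 separates all 7 pairs from the single cells, and Socs1 all pairs except that of cells 75 and 76.

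Effector genes overlapped between the groups. Of 14 cytotoxic effector genes tested, 1 had a higher mean at an unadjusted p under 0.05 and 0 a lower one, against 4.10% and 1.37% of all genes, and the median difference was -0.06 after taking off that of all genes. That gene was Tnf, the cytokine tumour necrosis factor, at 3.24 ± 1.62 without and 2.24 ± 1.33 with cousins (difference 1.00, adjusted p = 0.859), and without cells 13 to 20 the Tnf difference was 0.65. Gzmb, which encodes granzyme B, averaged 6.38 ± 1.89 and 5.49 ± 2.49 (difference 0.89, SE 0.66, adjusted p = 0.923). In the sister pairs Gzmb read 8.04, 8.82, 7.79, 8.0, 2.81, 2.13 and 6.61, and in the single cells 6.86, 5.68, 6.96, 5.58, 7.11, 6.30 and 6.57. Cousin lineages ran from 0.20 to 8.21 with a median of 6.20. The 4 highest pairs were those of cells 13 to 20, the lowest were the pairs released at 0.854 and 0.560 h, and without cells 13 to 20 the difference was 0.17. Gzma, the gene of granzyme A, was above 0 TPM in 5 of 21 and 4 of 76 cells, and Ifng in 1 and 8; neither reached the filter. Prf1, the gene of perforin, was above 0 TPM in 1 and 9 cells.

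Genes of resting and memory cells overlapped between the groups too. Of 18 tested, 1 had a higher and 0 a lower mean at an unadjusted p under 0.05 (5.56% against 4.10% of all genes for higher means), with a median of -0.11 after taking off that of all genes and 0.28 without cells 13 to 20. Ccr7, the chemokine receptor for lymph node homing, averaged 5.99 ± 0.76 and 5.52 ± 1.31 (adjusted p = 0.918). Tcf7, which encodes TCF-1, averaged 3.59 ± 1.51 and 3.85 ± 0.99 (adjusted p = 0.957). S1pr1, the receptor for exit from lymphoid tissue, averaged 2.31 ± 1.71 and 1.36 ± 1.11 (adjusted p = 0.859). Without cells 13 to 20 the S1pr1 difference went from 0.95 to 1.59 (adjusted p = 0.241), that of Ccr7 from 0.48 to 0.73 and that of Tcf7 from -0.26 to 0.28, and none passed.

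The receptor and signalling genes of the T-cell overlapped between the groups. Of 18 T cell receptor complex and signalling genes, 0 had an unadjusted p under 0.05. Cd3e differed by -0.08 (6.24 ± 0.55 against 6.32 ± 0.49) and Cd8a by 0.03 (5.66 ± 0.59 against 5.63 ± 1.33). Cd8b1, the beta chain of the coreceptor, averaged 6.57 ± 0.63 and 6.17 ± 1.66 (difference 0.40, adjusted p = 0.938), and 1 cousin lineage had no Cd8b1 in any cell. Of 17 activation and costimulatory receptors, 2 had higher means at an unadjusted p under 0.05 (11.8% against 4.10% of all genes). Cd160, a receptor of cytotoxic lymphocytes, averaged 2.97 ± 0.92 without and 1.64 ± 1.35 with cousins (difference 1.34, SE 0.40, adjusted p = 0.651), with all 14 lineages above the median of cousin lineages and all 14 within their range of 0 to 4.29. Il2rb, the beta chain of the interleukin 2 receptor, averaged 6.12 ± 0.72 and 5.52 ± 0.91 (adjusted p = 0.850), and Il2ra, the alpha chain, 3.79 ± 1.2 and 3.66 ± 1.46 (adjusted p = 0.983). Without cells 13 to 20 the small differences of Cd3e (0.0079), Cd8a (-0.15) and Il2ra (-0.11) had the other sign. Among 15 interleukin 2 response genes, 1 had a higher mean at an unadjusted p under 0.05 (6.67% against 4.10% of all genes), the cytokine gene Osm (2.74 ± 1.47 against 1.75 ± 1.38, adjusted p = 0.850). Among 15 effector transcription factors, 1 did (also 6.67%), Id2, an inhibitor of DNA binding that favours effector cells (3.88 ± 0.97 against 2.86 ± 1.63, adjusted p = 0.830).

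Cell cycle genes did not share a direction. Of 37 G1/S and replication genes, 1 had a higher mean at an unadjusted p under 0.05 (Gins1, 2.70% against 4.10% of all genes), and of 48 G2 and mitosis genes 2 did (4.17%), Cenpa, the histone variant of centromeres (5.48 ± 0.53 against 4.81 ± 0.79, adjusted p = 0.797), and Ccnb2, the gene of cyclin B2 (5.55 ± 0.72 against 4.98 ± 0.88, adjusted p = 0.859). The median over the G2 and mitosis genes, after taking off that of all genes, was -0.14 in all lineages. In the 31 lineages with a recorded time it was -0.07 without a covariate and 0.19 with hours since division as one, and for the G1/S and replication genes the values were -0.03, 0.09 and -0.06. Kpna2, an importin that peaks in late cell cycle, averaged 5.21 ± 1.98 and 5.88 ± 0.89 (difference -0.67, adjusted p = 0.915). In the lineages with a recorded time the Kpna2 difference was -0.29 without and 0.29 with the covariate, and without cells 13 to 20 it was -1.05 (adjusted p = 0.535). Top2a, the topoisomerase of chromosome condensation, averaged 4.15 ± 1.12 and 4.68 ± 0.81 (difference -0.53, adjusted p = 0.910, and -0.80 without cells 13 to 20). Among 18 p53 target genes, 1 was higher, Cdkn1a, the gene of the kinase inhibitor p21 (3.16 ± 2.07 against 1.75 ± 1.65, difference 1.42, adjusted p = 0.830), and 1 lower, Ei24, a protein of the endoplasmic reticulum (0.57 ± 0.81 against 1.34 ± 0.86), at an unadjusted p under 0.05 (5.56% each, against 4.10% and 1.37% of all genes). Cdkn1a averaged 4.60 ± 1.41 in the pairs of cells 13 to 20, and without them its difference was 0.84 (unadjusted p = 0.177, adjusted p = 0.730, limma).

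Among metabolic lists, 22 of 23 sterol synthesis genes had a higher mean without cousins, against 62.1% of all genes, with a median of 0.30 after taking off that of all genes, and 2 of 23 had an unadjusted p under 0.05 (8.70% against 4.10% of all genes). These were Mvk, mevalonate kinase (2.46 ± 1.75 against 1.36 ± 1.03, adjusted p = 0.830), and Fdps, farnesyl diphosphate synthase (4.96 ± 0.48 against 4.39 ± 0.70, adjusted p = 0.830). The list median kept its sign under all 25 alternatives (0.14 to 0.47). The genes and the alternatives draw on the same lineages, so they are not independent counts. Averaged over the sterol list, lineages without cousins read 2.48 ± 0.88 (0.49 to 3.71). Cousin lineages read 2.11 ± 0.64 (1.19 to 3.33), so the groups overlapped. Of 6 genes of metallothioneins and zinc transport, 1 had a higher mean, with a median of -0.47 after taking off that of all genes (-0.82 to -0.17 over the alternatives), and Mt3 was at 0 in all 21 cells without cousins and above 0 TPM in 10 of 76 others. Mt1, a zinc-binding protein, averaged 1.54 ± 1.94 and 2.35 ± 2.19 (adjusted p = 0.923). Averaged over this list, lineages read 1.08 ± 0.73 (0.33 to 2.97) without and 1.37 ± 0.87 (0.28 to 3.15) with cousins. The 13 immediate early genes had a median of -0.27 after taking off that of all genes. Of these, Dusp5, a phosphatase of ERK signalling, had a lower mean at an unadjusted p under 0.05, 7.69% of the list against 1.37% of all genes (0.55 ± 0.80 against 1.19 ± 1.01, adjusted p = 0.880).

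The remaining lists are given by their counts. Of 75 nuclear respiratory chain genes, 3 had higher and 0 lower means at an unadjusted p under 0.05, and of 80 cytosolic ribosomal protein genes 0 and 1. These are shares of 4.0% higher and 1.25% lower, near the 4.10% and 1.37% of all genes, with medians of 0.05 and -0.05 after taking off that of all genes. Of 28 ribosome biogenesis genes, 22 glycolysis and hypoxia genes and 14 polyubiquitin and heat shock genes, 0 had an unadjusted p under 0.05. Of 24 interferon response and antigen presentation genes 1 was higher and 1 lower (4.17% each), the latter Iigp1, an interferon-induced GTPase (0.01 ± 0.05 against 0.63 ± 0.84, adjusted p = 0.750). Of 17 homing and adhesion genes and 18 S100 and effector cytoskeletal genes 1 each was higher (5.88% and 5.56%), in the second list Anxa2, the gene of annexin A2 (5.05 ± 1.24 against 4.08 ± 1.27, adjusted p = 0.830). Of 13 BCL2 family genes, 1 was higher (Bad, 7.69%). No gene of any list passed in the comparison of all 14 lineages.

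**Figure D4:**
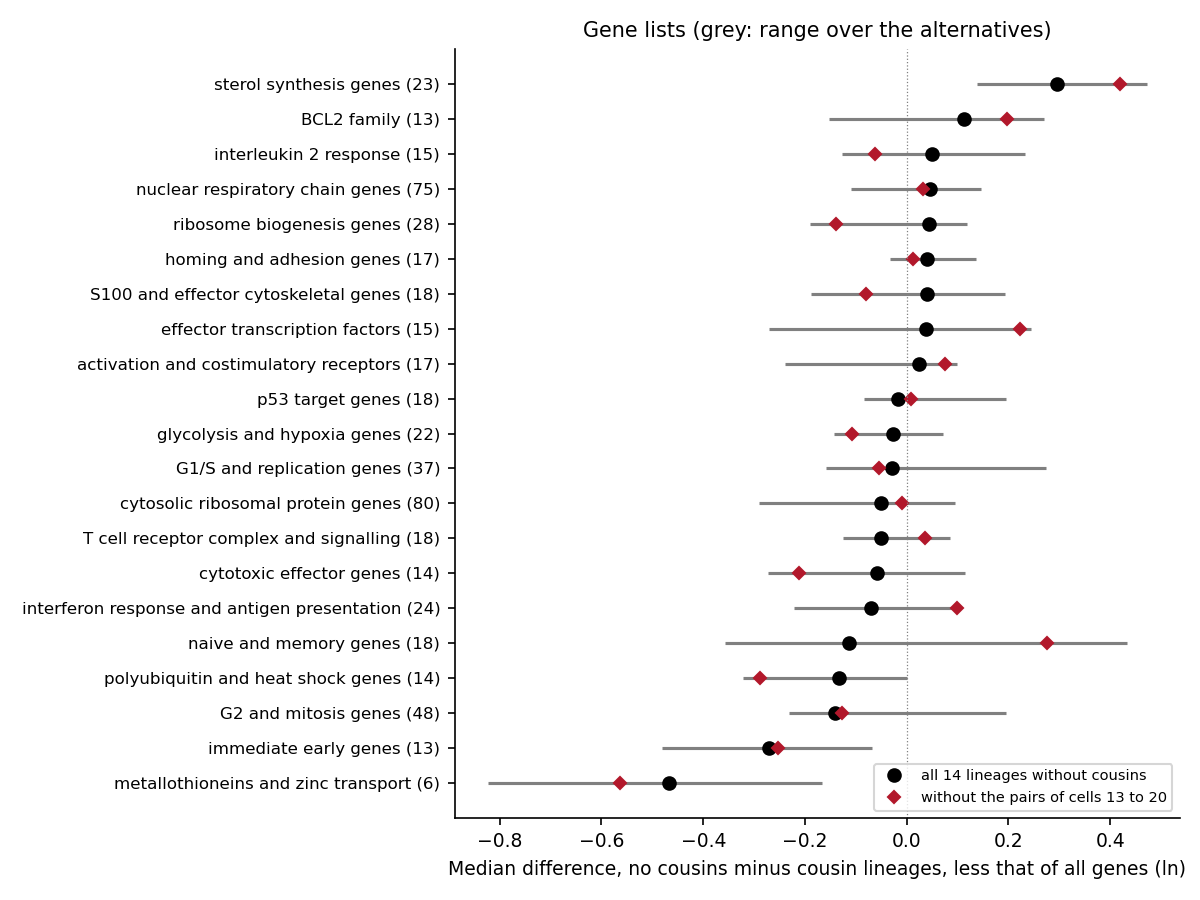
Median difference of each gene list (number of genes tested in brackets), no cousins minus cousin lineages on the ln(TPM + 1) scale, less the median of all genes; black points use all 14 lineages, red diamonds leave out the pairs of cells 13 to 20, and grey lines span the alternatives. Sterol synthesis genes lie at 0.30 and metallothioneins and zinc transport at -0.47, and most other lists cross 0.

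Sister pairs and single cells without named relatives were compared next, since the label gathers both. Pairs averaged 7057 ± 1201 detected genes and single cells 7437 ± 1534, at 3.02 ± 1.94 h (7 pairs) and 2.94 ± 2.97 h (4 cells with a record) after division. All 7 single cells were numbered from 69 to 82, and no run of the device is given for any. The pair of cells 75 and 76 and the cousin cells 71 to 74 are numbered within that range. That pair lay within the range of the single cells in Tspan32, C1qbp and Socs1, but not in Cpt2. Whether values followed the cell numbers was not tested. Limma called 2 of 9997 genes (0.0200%), while 1038 genes (10.4%) had an unadjusted p under 0.05. The fit shares 1 spread per gene with the cousin lineages. The median SD over genes was 0.741 between those, 0.846 between pairs and 1.15 between single cells. The SE and p of this comparison can thus be too small, and the share of low p too high. Socs1, which encodes a feedback inhibitor of cytokine receptor signalling (chromosome 16, 10782240 to 10785536, minus strand), was higher in the pairs, at 5.31 ± 1.33 against 2.19 ± 1.36 (difference 3.12, SE 0.59, adjusted p = 0.0159). The pairs read 6.14, 6.23, 6.15, 5.49, 5.81, 4.82 and 2.51, and the single cells 4.12, 3.24, 2.80, 1.18, 1.82, 0 and 2.16. The groups overlapped only through the pair of cells 75 and 76, and cousin lineages spanned 1.54 to 5.78. Cpt2, the mitochondrial carnitine palmitoyltransferase of fatty acid oxidation (chromosome 4, 107903981 to 107923610, minus strand), was lower in the pairs, at 0.92 ± 0.90 against 3.50 ± 0.39 (difference -2.59, SE 0.49, adjusted p = 0.0159). The pairs read 0.77, 0.30, 2.05, 2.10, 0, 0 and 1.19 and the single cells 3.88, 3.24, 3.01, 3.85, 3.87, 3.62 and 3.07, with no overlap, while cousin lineages spanned 0 to 3.01.

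The count of genes called between pairs and single cells turned on single lineages. It was 0 without the pair of cells 13 and 15, the pair of cells 14 and 19, cell 78 or cell 80, 39 without the pair of cells 75 and 76 and 32 without cell 81. Without the 4 pairs of cells 13 to 20 it was 6, Cpt2 among them and Socs1 not. With 1 cell per lineage 0 genes passed (485 with an unadjusted p under 0.05).

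Resemblance between sisters was measured as the Euclidean distance between 2 sisters over the 9997 genes. It averaged 167 ± 28.7 in 7 pairs without cousins and 172 ± 28.4 in 20 cousin lineages (difference -4.82, exact permutation p = 0.704, adjusted p = 0.885). Relative to the distance of the same cells from unrelated cells, the sister distance differed by a mean of -7.91 ± 9.75% without cousins and -7.25 ± 10.2% in cousin lineages, a negative value meaning closer (difference -0.657 percentage points, exact permutation p = 0.885, adjusted p = 0.885). The 7 pairs lay at -12.2, -5.97, 1.09, -10.9, 1.15, -2.07 and -26.4%. Unrelated cells were all CD8+ T-cells of other lineages, at any time since division and of either sex. Sisters differed in time since division by at most 0.19 h in these pairs and 0.083 h (lineage mean) in cousin lineages. In each gene set, closeness of sisters can thus hold nearness in time as well as descent, which were not told apart. The paper also used unrelated pairs of similar cell cycle stage, which was not done here. Sisters were closer than unrelated cells in 5 of 7 pairs (exact sign-flip permutation test, p = 0.0781, adjusted p = 0.0781 over 6 tests, where 0.0156 is the smallest p that 7 pairs allow) and in 16 of 20 cousin lineages (sign-flip permutation, p = 0.00167, adjusted p = 0.00334).

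Over 113 T cell genes of the lists, sisters without cousins were closer than unrelated cells in 7 of 7 pairs, by -16.9 ± 9.15% (exact sign-flip permutation p = 0.0156, the smallest possible, adjusted p = 0.0234), and sisters of cousin lineages in 20 of 20, by -18.3 ± 11.2% (sign-flip permutation p = 1e-05, the smallest that the resamples give, adjusted p = 6e-05). Over 85 cell cycle genes the values were -18.5 ± 14.8% in 6 of 7 pairs (exact sign-flip permutation p = 0.0312, adjusted p = 0.0375) and -14.7 ± 17.1% in 15 of 20 lineages (sign-flip permutation p = 0.00164, adjusted p = 0.00334). The difference between groups was 1.31 percentage points over T cell genes (exact permutation p = 0.785) and -3.76 over cell cycle genes (exact permutation p = 0.609), with an adjusted p of 0.885 for both. Without cells 13 to 20, sisters were closer in 2 of 3 pairs over all genes (-9.10 ± 15.1%), 3 of 3 over T cell genes (-18.6 ± 7.75%) and 2 of 3 over cell cycle genes (-19.1 ± 16.6%), where the smallest p that 3 pairs allow is 0.25, so that no test at 0.05 was possible. The named sister was the nearest of the 96 other cells over T cell genes for 2 of 14 cells without cousins, both in pairs of cells 13 to 20, and for 11 of 72 cells of cousin lineages.

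Single genes differed in how alike sisters were. Cd8b1 differed between sisters by 0.19 ± 0.14 on average in the 7 pairs, against 0.59 ± 0.85 in 20 cousin lineages and 1.34 between unrelated cells (pairs against cousin lineages, exact permutation p = 0.169, adjusted p = 0.438 over 14 genes). The sisters of the pair numbered 49 and 50 read 7.55 and 7.55. Gzmb differed by 1.59 ± 2.32 in the pairs, 1.22 ± 1.12 in cousin lineages and 2.77 between unrelated cells (exact permutation p = 0.596, adjusted p = 0.754). In 5 pairs the sisters were within 0.41 of each other for Gzmb, and in the pairs of cells 36 and 42 and of cells 49 and 50, both released within 1 h of division, one sister had no Gzmb and the other read 5.61 and 4.26. Ccr7 differed by 0.82 ± 0.54 in the pairs and 0.95 ± 0.85 in cousin lineages. Tspan32 differed by 2.10 ± 1.85 between sisters of the 7 pairs, by 1.29 ± 1.31 between sisters of cousin lineages and by 1.82 between unrelated cells (pairs against cousin lineages, exact permutation p = 0.219, adjusted p = 0.438). The value for unrelated cells was 1 per gene for both groups, not one for the cells of these pairs. Tspan32 itself averaged 2.76 without and 1.09 with cousins, so its 1.82 is not a like reference for the pairs.

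**Figure D5:**
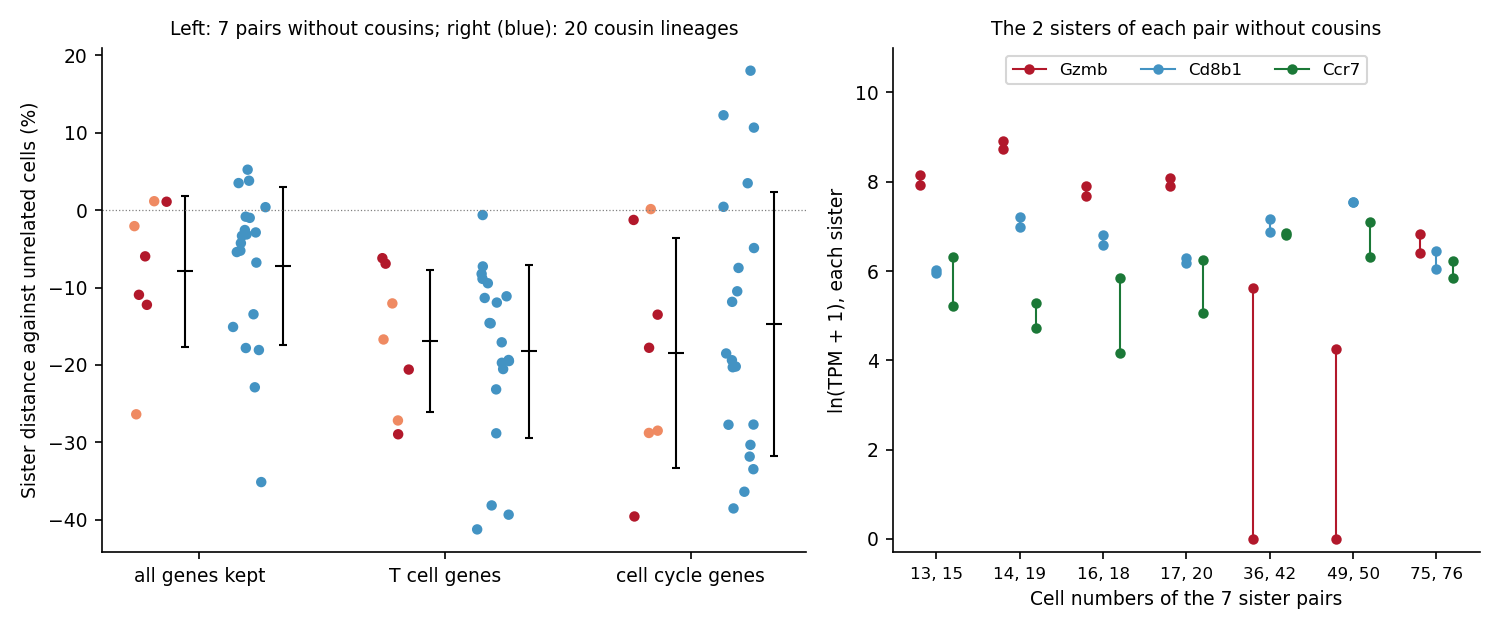
Left, distance between sisters relative to unrelated cells in percent, by lineage, for 3 gene sets (7 pairs without cousins in red and orange, 20 cousin lineages in blue; bars are mean and SD). Right, ln(TPM + 1) of Gzmb, Cd8b1 and Ccr7 in both sisters of each of the 7 pairs, where Gzmb parts the sisters 36 and 42 and the sisters 49 and 50.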

How the data were processed

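The libraries were single CD8+ T-cells prepared by Smart-Seq2 and sequenced by the authors with paired 30-base reads. The deposited values are TPM, which the authors computed with RSEM 1.2.3 against mm10 genes; TPM keeps no read depth, so the number of detected genes (above 0 TPM) and the share of TPM from the 45S ribosomal RNA precursor Rn45s stand in for library quality. Submitters' processing notes also name bcl2fastq, TopHat2 and GenomeStudio. Spreadsheet software had turned 27 gene names into dates, and these are not named.

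Cells were grouped from the sister and cousin labels. The 4 libraries marked as doublets and 5 with fewer than 1000 detected genes (12 to 714) were left out. Values were taken as ln(TPM + 1), and the 9997 genes above 1 on this scale in more than 10% of the 97 cells were averaged over the cells of a lineage, the replicate. Groups were compared with limma 3.58.1 (R 4.3.3, variance trend) and Benjamini-Hochberg adjustment over all 9997 genes; the sister pair against single cell comparison was a contrast of the same kind fitted with all 34 lineages. Single values were compared by 2-sided permutation tests over lineages (100000 resamples, or exact where a group had fewer than 10), adjusted over 7 tests, 2 of which (T cell and cell cycle gene distances) were added after seeing the data. The scripts were tested on simulated data. Alternatives covered the pseudocount, filters, normalization, weights, covariates and lineages left out. Genes named are the 15 of lowest p in each direction, up to 4 of lowest p in each gene list, the highest markers of other cell types and a fixed panel (Cd3e, Cd8a, Cd8b1, Gzmb, Gzma, Prf1, Ifng, Ccr7, Il7r, Il2ra, Tcf7, Tbx21, Eomes, Mki67, Top2a, Ccnb1, Kpna2, Ubb, Xist, 4 Y-linked genes, Rn45s), of which not all are reported. Some results are not reported here. The members and lists were chosen with earlier results of these data known. Positions are from GENCODE M21 on GRCm38, the build of mm10. No pair of libraries held identical values. The labels name no mouse, culture or device run, so p-values measure the spread between lineages as labelled, some of which may be related.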

Additional observations from a re-analysis of the deposited data

Results flagged for a closer look

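In 55 groups of 4 to 10 lineages or cells that were tested for a value far from the others, 9 values stood apart. Chance gives about 1 in 20, but that rate need not hold for genes at 0 in most members of a group. Prf1, Il7r, Kdm5d and Uty were such genes here, so the count of 9 cannot be set against it. Among the 7 sister pairs without cousins, the highest Prf1 was 1.38 on the ln(TPM + 1) scale and the highest Il7r 1.54, each in a group otherwise at 0. The lowest Kpna2 of these pairs was 2.16 (median 5.84), in the pair of cells 36 and 42. Their highest Kdm5d was 0.979 and their highest Uty 2.11, both Y-linked genes in cells from mice of both sexes. Among the 7 single cells, the lowest values of Tbx21 (0, median 4.2), Kpna2 (0, median 5.30) and Rn45s (9.19, median 12.2) and the highest value of Kdm5d (2.41, median 0) stood apart from the rest. The Rn45s value is that of cell 81, described above. No cause was tested for any of these values.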

How the results depend on the processing

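The count of genes called between lineages without cousins and cousin lineages was 0 in the comparison reported. It was 1 with ln(TPM + 0.1) and 1 with limma without the variance trend, Bad in both. It was 11 without the 4 pairs of cells 13 to 20, 44 with single cells only, 3 with 1 cell per lineage without those pairs and 1 with 1 cell per lineage and single cells only, the last 3 alternatives being chosen after seeing the data, as was the weighting by cell number without those pairs (0). Leaving out 1 lineage at a time gave 0 to 2, the 2 (Bad and Tspan32) without the pair of cells 16 and 18. The count between sister pairs and single cells was 2 as reported, 1 with ln(TPM + 0.1), 1 with ln(TPM + 10), 9 with genes above 1 in more than 50% of cells, 0 with 1 cell per lineage, 13 with quantile normalization and 6 without cells 13 to 20, an alternative also added after seeing the data. Leaving out 1 lineage gave 0 to 39. The Rn45s difference turned positive with 1 cell per lineage (0.146), with sister pairs only (0.676) and without cells 13 to 20 (0.138). Leaving out 1 lineage gave -2.34 to 0.572. The sister distance difference turned with at least 4000 detected genes (2.52) and without cells 13 to 20 (0.0465), and spanned -10.2 to 3.07 (3.07 without cells 75 and 76). The relative distance difference turned with ln(TPM + 10) (0.00189) and at least 4000 detected genes (1.5), and spanned -2.17 to 2.42 (2.42 without cells 75 and 76, 0.0637 without cells 13 and 15). Leaving out 1 lineage kept the sign of the differences in detected genes (408 to 778) and hours (-2.37 to -1.70). The median over all genes was 0.09 as reported, 0.18 with ln(TPM + 0.1) and 0.02 with ln(TPM + 10). The sister tests within the group without cells 13 to 20 and the lineages with a recorded time without a covariate were also chosen after seeing the data. The cause of these changes was not tested. No paired analysis was possible because no lineage of one group is tied to a lineage of the other by a label. TPM keeps no depth, so a gene listed at 0 cannot be given a limit.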
